A study of Mus musculus with 12 samples.

Results

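The 10 genes described here, Atf4, Atf5, Ddit3, Trib3, Chac1, Ppp1r15a, Ddit4, Sesn2, Asns and Psat1, belong to the integrated stress response and were chosen by name, with earlier results of these data known, from a deposited table of 15217 genes. All 10 were in the table and all 10 passed a filter on low counts that left 11080 genes, and 7 of them were among the 5538 genes with enough reads in every labelled library for a test of newly made RNA.

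In the integrated stress response, kinases that sense unfolded protein in the endoplasmic reticulum, missing amino acids, double-stranded RNA or lack of heme phosphorylate the translation factor eIF2alpha. General protein synthesis then falls, while the mRNA of the transcription factor ATF4 is translated more. ATF4 raises the transcription of genes for amino acid synthesis and transport and of regulators of stress, growth and cell death, some of which feed back on the pathway.

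The cells were NIH-3T3, an established wild-type mouse fibroblast line. They were grown without 4-thiouridine (4sU), with 200 µM 4sU or with 800 µM 4sU for 2 h. 4sU is a uridine analogue that enters RNA made during labelling, and SLAM-seq converts it with iodoacetamide so that it is read as C. The conversion was run either in methanol-fixed cells or on RNA in tubes, and per the labels' protocols the tubes were incubated longer and at a lower temperature. The 6 groups were thus fixed cells without 4sU, at 200 µM and at 800 µM, and tubes without 4sU, at 200 µM and at 800 µM, with 2 libraries each, named A and B. Whether A and B came from separate cultures is not stated by the labels, so the p-values below measure only the spread between these libraries, which may be technical. Being 1 line in bulk, the data cannot tell fewer cells that make an RNA from less of it per cell.

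Library totals ranged from 3629634 to 7762635 counts. All 10 fibroblast markers checked passed the filter. Of 15 markers of epithelial, immune, endothelial, muscle and neural cells, Cd68 and Tubb3 passed it, at no more than 11.1 and 6.74 counts per 1000000 counts (CPM) in any library, and the others that had a row reached at most 6 counts. Library A of fixed cells at 800 µM stood apart: its counts differed from those of library B 21.5 times as much as counting noise, measured as chi-square per degree of freedom, against 3.15 to 6.81 in the other 5 pairs. Its median new-to-total ratio was 25.95%, against 32.08% to 42.31% in the other 7 labelled libraries. In the comparison of fixed cells at 800 µM with unlabelled fixed cells, each member is given below with and without it.

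Per kb of the deposited transcript length, the mean level over the 12 libraries ran from 338 CPM for Psat1 through 198 for Atf4, 95.1 for Asns, 80.7 for Atf5, 69.1 for Ddit3, 27.1 for Ddit4, 18.6 for Chac1, 7.65 for Ppp1r15a and 6.30 for Trib3 to 3.00 for Sesn2. Neighbours in this order were separated over all 12 libraries at 3 places, between Atf4 and Asns, between Ddit3 and Ddit4, and between Chac1 and Ppp1r15a; at the other places the ranges of the neighbours overlapped. Psat1, an enzyme of serine synthesis, thus gave the highest level per length, and Ppp1r15a, Trib3 and Sesn2 the lowest. All CPM values are scaled by edgeR's TMM factors.

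**Figure D1:**
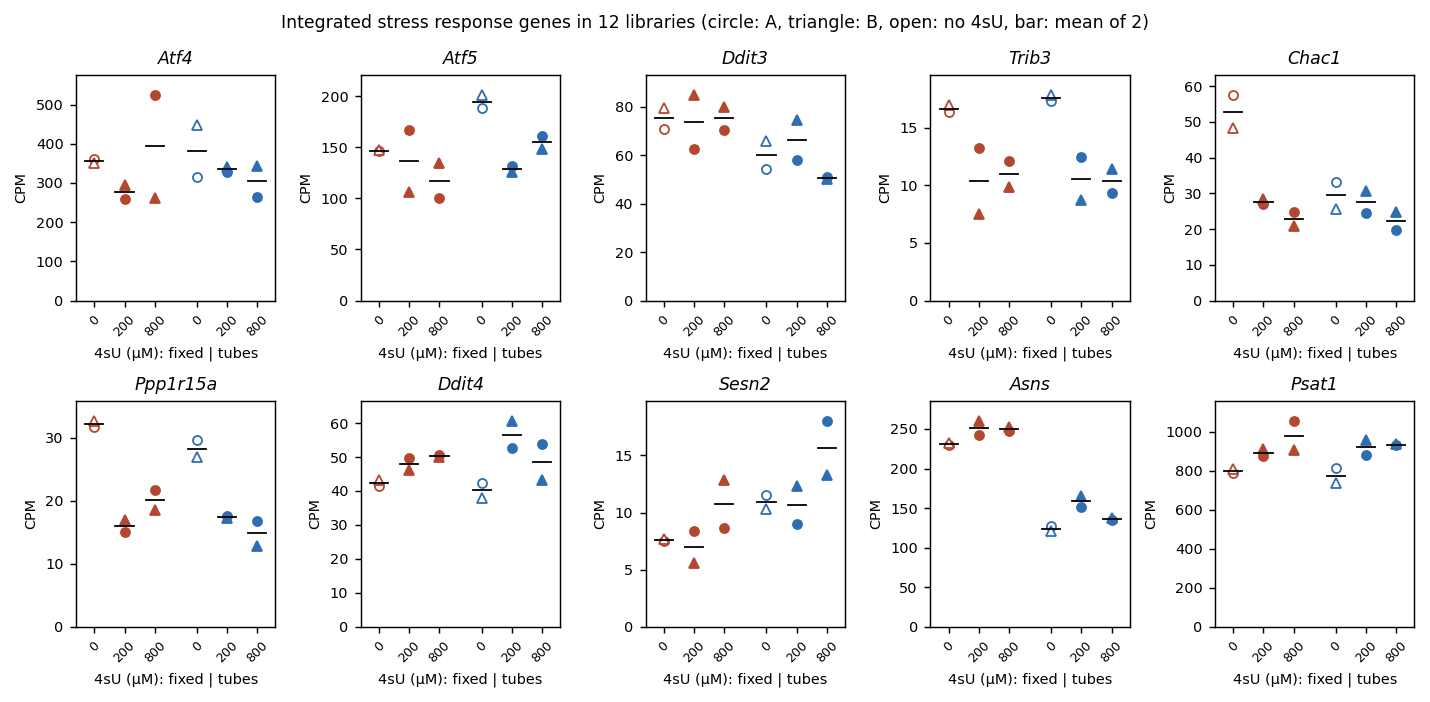
Level of each of the 10 genes in every library, in CPM (linear axis from 0), for fixed cells (left, red) and tubes (right, blue) at 0, 200 and 800 µM 4sU; circles are library A, triangles library B, open symbols libraries without 4sU, and bars the mean of 2. Trib3 and Ppp1r15a sit lower in all 8 labelled libraries than in both unlabelled libraries of the same procedure, while Asns, Psat1 and Ddit4 sit higher in all 8. The labelled libraries of a procedure share its 2 unlabelled ones, and the share of all genes that do the same was not counted.

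The comparison of 4sU with no 4sU asked whether these genes differed between labelled and unlabelled cells within each procedure. Ppp1r15a and Chac1, genes downstream of ATF4, were called lower with 4sU in 2 of the 4 comparisons each. No member was called higher in any of these 4 comparisons. A call means a Benjamini-Hochberg (BH) adjusted p under 0.05 over all 11080 genes in edgeR's quasi-likelihood test.

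By comparison, 1 of the 10 members was called in fixed cells at 800 µM (Chac1, lower), where 2.66% of all genes were called. In fixed cells at 200 µM 2 members were called (Chac1 and Ppp1r15a, both lower), against 0.812% of all genes. In tubes at 800 µM 1 member was called (Ppp1r15a, lower), against 1.87% of all genes. In tubes at 200 µM edgeR called 0 members, with 5 at an unadjusted p under 0.05, where 2306 of the 11080 genes had one, DESeq2 called 1 (Atf5, lower), and 3.75% of all genes were called by edgeR. The median log2 change of the members was 0.06, -0.11, -0.29 and -0.05 in these comparisons, in the same order, and that of all genes was between -0.00 and 0.03. Both doses of a procedure share its 2 unlabelled libraries, so their results are not independent. The same holds for the counts below of labelled libraries under or above the unlabelled ones, which were made for the members only.

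**Figure D2:**
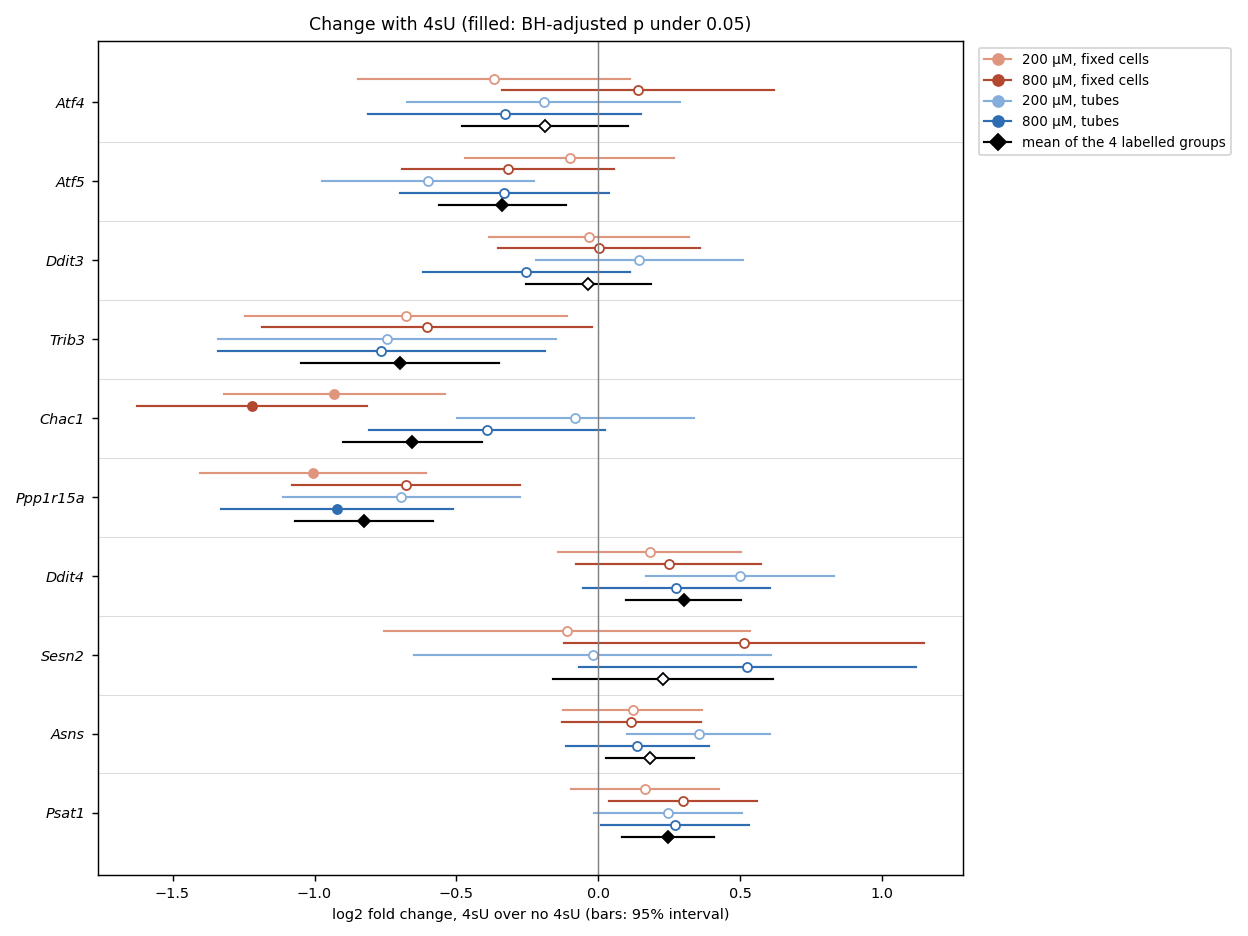
Log2 fold change of each gene, 4sU over no 4sU, with 95% intervals, for 200 and 800 µM in fixed cells (red) and tubes (blue) and for the mean of the 4 labelled groups (black diamonds); filled symbols passed a BH-adjusted p of 0.05. Ppp1r15a, Trib3, Chac1 and Atf5 lie left of 0 in all 4 comparisons, Chac1 at only -0.08 in tubes at 200 µM and Atf5 at -0.10 in fixed cells at 200 µM. Chac1 lies farthest left in fixed cells at 800 µM and Ppp1r15a at 200 µM. Ddit4, Asns and Psat1 lie right of 0.

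Ppp1r15a (chromosome 7, 45522916 to 45526268 on the minus strand, GRCm38) encodes GADD34, which brings protein phosphatase 1 to eIF2alpha and so reverses the response. In fixed cells its level was 31.7 and 32.6 CPM without 4sU, 15.1 and 17.0 CPM at 200 µM and 21.8 and 18.6 CPM at 800 µM, in libraries A and B. In tubes it was 29.6 and 27.0 CPM without 4sU, 17.6 and 17.3 CPM at 200 µM and 16.8 and 12.9 CPM at 800 µM. All 8 labelled libraries were thus below both unlabelled libraries of their procedure.

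Ppp1r15a fell to 0.498 times its unlabelled level in fixed cells at 200 µM (95% interval 0.378 to 0.657, log2 change -1.0, SE 0.19, adjusted p = 0.0214) and to 0.528 times in tubes at 800 µM (0.397 to 0.702, log2 change -0.92, SE 0.20, adjusted p = 0.0206). At 800 µM in fixed cells the log2 difference was -0.68 (adjusted p = 0.0624; -0.74 without library A at that dose), and at 200 µM in tubes it was -0.69 (adjusted p = 0.0554). These 2 differences missed the threshold. Each of the 2 calls was lost when any 1 of its 4 libraries was left out, labelled or unlabelled, with adjusted p between 0.141 and 0.259 for fixed cells at 200 µM and between 0.0755 and 0.201 for tubes at 800 µM. The log2 change then stayed between -1.13 and -0.74.

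Chac1 (chromosome 2, 119351229 to 119354381, plus strand) encodes an enzyme that degrades glutathione. In fixed cells it stood at 57.5 and 48.1 CPM without 4sU, 26.9 and 28.5 CPM at 200 µM and 24.6 and 20.8 CPM at 800 µM. In tubes it stood at 33.2 and 25.6 CPM without 4sU, 24.5 and 30.6 CPM at 200 µM and 19.8 and 24.9 CPM at 800 µM. The labelled libraries of both procedures therefore lay in 1 range, 19.8 to 30.6 CPM, and the unlabelled fixed cells were the group that stood apart.

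In fixed cells Chac1 fell to 0.429 times its unlabelled level at 800 µM (95% interval 0.324 to 0.568, log2 change -1.22, SE 0.19, adjusted p = 0.00252) and to 0.525 times at 200 µM (0.401 to 0.687, log2 change -0.93, SE 0.19, adjusted p = 0.0243). Without library A at 800 µM the change at that dose was -1.29 (adjusted p = 0.00399). The call at 800 µM was lost without library A of unlabelled fixed cells (adjusted p = 0.0612), and the call at 200 µM was lost when any 1 of its 4 libraries was left out (adjusted p between 0.166 and 0.331). In tubes the log2 difference was -0.39 at 800 µM (adjusted p = 0.314) and -0.08 at 200 µM (adjusted p = 0.859).

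The test of whether the effect differed between the procedures did not call Chac1. Its log2 change in fixed cells minus that in tubes was -0.83 at 800 µM (unadjusted p = 0.00759, adjusted p = 0.822) and -0.85 at 200 µM (unadjusted p = 0.00579, adjusted p = 0.361). By edgeR 0 of the 10 members and 0% of all genes were called for this difference at either dose. Chac1 was the 1 member with an unadjusted p under 0.05 at each dose, and 654 genes in all had one at 800 µM and 993 at 200 µM. DESeq2 called 0 members at both doses, and over all genes 0 at 800 µM and 9 at 200 µM.

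Trib3 (chromosome 2, 152337422 to 152344032, minus strand) encodes a pseudokinase that binds and restrains ATF4 and AKT. Fixed cells gave 16.3 and 17.0 CPM without 4sU, 13.2 and 7.5 CPM at 200 µM and 12.1 and 9.9 CPM at 800 µM. Tubes gave 17.3 and 17.8 CPM without 4sU, 12.5 and 8.7 CPM at 200 µM and 9.3 and 11.4 CPM at 800 µM. As with Ppp1r15a, every labelled library was below both unlabelled libraries of its procedure, but libraries A and B at 200 µM were far apart, and counts were low, from 51 to 99 in the labelled libraries. The log2 differences of -0.68 and -0.60 in fixed cells and -0.74 and -0.77 in tubes, at 200 and 800 µM, had adjusted p-values between 0.137 and 0.299, and that in fixed cells at 800 µM was -0.70 without library A. With 1 library left out the difference at 200 µM in fixed cells ran from -1.15 to -0.33, and Trib3 was called in 0 of 4 cases in each of the 4 comparisons.

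The transcription factors gave no call in these comparisons. Atf4 (chromosome 15, 80255184 to 80257541, plus strand) had 361.6 and 352.0 CPM without 4sU, 258.5 and 294.9 CPM at 200 µM and 524.2 and 262.1 CPM at 800 µM in fixed cells. In tubes it had 315.7 and 448.5 CPM without 4sU, 329.2 and 339.9 CPM at 200 µM and 263.9 and 344.3 CPM at 800 µM. The value of 524.2 CPM belongs to library A of fixed cells at 800 µM, the library that stood apart, and library B of that group had 262.1 CPM, so that this pair spanned more than the other 10 libraries did, from 258.5 to 448.5 CPM. At 800 µM in fixed cells the log2 difference of Atf4 was 0.14 (adjusted p = 0.788); it was 0.55 (adjusted p = 0.0387) with library A alone and -0.39 with library B alone. The response raises ATF4 largely through translation, and protein was not measured.

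Atf5 (chromosome 7, 44812256 to 44816658, minus strand), a relative of ATF4 with a translation control of the same kind, had 146.5 and 147.0 CPM without 4sU, 167.4 and 106.1 CPM at 200 µM and 100.2 and 134.6 CPM at 800 µM in fixed cells. In tubes it had 188.4 and 201.2 CPM without 4sU, 131.4 and 125.8 CPM at 200 µM and 161.5 and 148.2 CPM at 800 µM. It was below both unlabelled libraries in 7 of 8 labelled libraries and above them in library A of fixed cells at 200 µM. The widest separation was in tubes at 200 µM, with a log2 difference of -0.60 (SE 0.18, adjusted p = 0.0627), which DESeq2 called (adjusted p = 0.0388). In fixed cells at 800 µM it was at -0.32, and at -0.07 without library A of that group. Of its 1993 exon bases, 82 are shared with Nup62 and Il4i1 on the other strand, and the sources used here do not say whether reads were counted by strand.

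Ddit3 (chromosome 10, 127290774 to 127296288, plus strand) encodes CHOP, the transcription factor linked to cell death in prolonged stress. It had 71.0 and 79.6 CPM without 4sU, 62.6 and 84.9 CPM at 200 µM and 70.6 and 80.2 CPM at 800 µM in fixed cells. Tubes had 54.4 and 66.0 CPM without 4sU, 58.3 and 74.7 CPM at 200 µM and 51.0 and 50.1 CPM at 800 µM. In fixed cells the 3 groups overlapped, and the log2 difference at 800 µM was 0.00 with a 95% interval of -0.35 to 0.36, and 0.14 without library A at that dose. Ddit3 shares 105 exon bases with a second entry of the same symbol on its strand and 68 with Mars on the other strand.

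Ddit4 and Sesn2 restrain the growth kinase mTORC1, and both are also known as targets of p53. Ddit4 (chromosome 10, 59949669 to 59951834, minus strand) had 41.3 and 43.2 CPM without 4sU, 49.7 and 46.1 CPM at 200 µM and 50.5 and 49.9 CPM at 800 µM in fixed cells. Tubes gave 42.3 and 38.1 CPM without 4sU, 52.7 and 60.5 CPM at 200 µM and 53.8 and 43.2 CPM at 800 µM. All 8 labelled libraries were above both unlabelled libraries of their procedure, with log2 differences between 0.18 and 0.50 and adjusted p-values of 0.0804 or more. In fixed cells at 800 µM the difference was 0.25, and 0.29 without library A.

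Sesn2 (chromosome 4, 132492032 to 132510501, minus strand) was the member with the fewest reads. It had 7.5 and 7.7 CPM without 4sU, 8.4 and 5.6 CPM at 200 µM and 8.6 and 12.9 CPM at 800 µM in fixed cells, and 11.5 and 10.3 CPM without 4sU, 9.0 and 12.3 CPM at 200 µM and 18.0 and 13.3 CPM at 800 µM in tubes. At 800 µM the 2 labelled libraries were above the 2 unlabelled ones in each procedure, by 0.51 on the log2 scale in fixed cells (95% interval -0.12 to 1.15) and 0.52 in tubes (-0.07 to 1.12). At this depth neither difference passed the test (adjusted p = 0.353 and 0.354). With 1 library left out they ran from 0.18 to 0.81 in fixed cells, the highest without library A at 800 µM, and from 0.29 to 0.72 in tubes, and neither was called.

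The 2 amino acid enzymes were slightly higher in every labelled library. Asns (chromosome 6, 7675169 to 7693254, minus strand), asparagine synthetase, had 229.2 and 231.9 CPM without 4sU, 241.8 and 259.6 CPM at 200 µM and 246.9 and 252.6 CPM at 800 µM in fixed cells. In tubes it had 127.3 and 120.9 CPM without 4sU, 152.0 and 164.8 CPM at 200 µM and 134.8 and 138.0 CPM at 800 µM. Its log2 differences were between 0.12 and 0.35, the smallest adjusted p was 0.101, in tubes at 200 µM, and with TMM factors computed on the 3663 genes with the lowest new-to-total ratio the difference at 800 µM in fixed cells turned to -0.01. Without library A at that dose it was 0.19, against 0.12 with all libraries.

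Psat1 (chromosome 19, 15904678 to 15947337, minus strand), the aminotransferase of serine synthesis, had 786.9 and 808.1 CPM without 4sU, 877.9 and 909.8 CPM at 200 µM and 1053.6 and 907.4 CPM at 800 µM in fixed cells. Tubes had 814.4 and 737.5 CPM without 4sU, 882.4 and 957.9 CPM at 200 µM and 933.2 and 935.3 CPM at 800 µM. The log2 differences ran from 0.16 to 0.30 with adjusted p-values between 0.185 and 0.626. At 800 µM in fixed cells the difference was 0.40 (adjusted p = 0.0459) without library B of that group, which leaves the library that stood apart, and 0.24 (adjusted p = 0.355) without library A. A processed pseudogene, Gm12611, matches 1056 bases of Psat1 at 91.0% identity, so its reads could be divided between the 2.

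To use all 12 libraries at once, the mean of the 4 labelled groups was set against the mean of the 2 unlabelled groups, a comparison added after the results above had been seen. Under it Ppp1r15a, Chac1, Trib3 and Atf5 fell and Ddit4 and Psat1 rose, 6 of the 10 members, where 14.7% of all genes were called (832 rose and 796 fell). Atf4, Ddit3, Sesn2 and Asns were not called. The members' median log2 change was -0.11 and that of all genes was 0.01.

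Ppp1r15a averaged 17.1 CPM over the labelled groups and 30.2 CPM over the unlabelled groups (log2 change -0.82, SE 0.12, adjusted p = 0.000228). Chac1 averaged 25.1 CPM with 4sU and 41.1 CPM without (log2 change -0.66, SE 0.12, adjusted p = 0.00151), and Trib3 averaged 10.6 CPM with 4sU and 17.1 CPM without (log2 change -0.70, SE 0.17, adjusted p = 0.0104). Ppp1r15a and Chac1 were called with each of the 12 libraries left out in turn, and Trib3 in all but 1 case, without library B of unlabelled fixed cells (adjusted p = 0.0536). These 3 genes were also lower under every scaling and test tried. For Chac1 the unlabelled mean joins 52.8 CPM in fixed cells with 29.4 CPM in tubes. In tubes alone Chac1 was at -0.39 at 800 µM and -0.08 at 200 µM, without a call. Leaving out 1 library at a time never removes the whole group of unlabelled fixed cells.

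The smaller changes were less stable. Atf5 averaged 134.4 CPM with 4sU and 170.8 CPM without (log2 change -0.34, SE 0.11, adjusted p = 0.0411), Ddit4 averaged 50.8 CPM with 4sU and 41.2 CPM without (log2 change 0.30, SE 0.10, adjusted p = 0.0445), and Psat1 averaged 932.2 CPM with 4sU and 786.7 CPM without (log2 change 0.24, SE 0.08, adjusted p = 0.0398). Of the 12 cases with a library left out, Atf5 lost its call in 9, Ddit4 in 8 and Psat1 in 9. The only libraries whose removal kept all 3 called were A and B of fixed cells at 800 µM. Scaling on the genes with the lowest new-to-total ratio moved the median of all genes by -0.12 and turned the split of all calls to 248 higher and 1574 lower; Ddit4 was then at 0.18 (adjusted p = 0.226) and Psat1 at 0.12 (adjusted p = 0.266).

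Of the members not called, Ddit3 differed by -0.04 with a 95% interval of -0.26 to 0.18, Sesn2 by 0.23 (-0.16 to 0.61), Asns by 0.18 (0.03 to 0.33, adjusted p = 0.104) and Atf4 by -0.19 (-0.48 to 0.10). Without library A of fixed cells at 800 µM, Atf4 was called lower, at -0.33 (adjusted p = 0.0139).

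Between the doses, 800 µM against 200 µM, edgeR and DESeq2 called 0 members in fixed cells and 0 in tubes. In both procedures edgeR called 0% of all genes, though 872 in fixed cells and 987 in tubes had an unadjusted p under 0.05, and DESeq2 called 0 and 13. At an unadjusted p under 0.05 there was 1 member in fixed cells, Atf4 (log2 difference 0.51, unadjusted p = 0.0402), and 1 in tubes, Ddit3 (-0.40, unadjusted p = 0.0317). Without library B of fixed cells at 800 µM, Atf4 passed the test (log2 difference 0.92, adjusted p = 0.00233), and without library A it was at -0.06.

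Without 4sU, fixed cells and tubes differed widely, with 31.4% of all genes called, and 2 of the 10 members were among them. Asns was 1.86 times as high in unlabelled fixed cells as in unlabelled tubes (95% interval 1.56 to 2.21, log2 difference 0.89, SE 0.12, adjusted p = 3.4e-05). Over all doses Asns ran from 229.2 to 259.6 CPM in the 6 libraries of fixed cells and from 120.9 to 164.8 CPM in the 6 libraries of tubes, with no overlap. Chac1 was 1.80 times as high in fixed cells (1.37 to 2.38, log2 difference 0.85, SE 0.19, adjusted p = 0.00238), and that call was lost without library B of unlabelled tubes (adjusted p = 0.0504). Scaling on the genes with the lowest new-to-total ratio moved the median of all genes by -0.26, and Asns (0.63) and Chac1 (0.59) were still called. Atf5 was at -0.41 (adjusted p = 0.0866), and was called with that scaling (-0.67, adjusted p = 0.00928), and the other members had adjusted p-values of 0.169 or more. Around them, edgeR called 4 of 18 other ATF4 targets for amino acid supply higher and 5 lower, 1 of 13 ATF4 targets of other kinds higher and 2 lower, 2 of 16 genes around eIF2 higher and 2 lower, and 3 of 15 genes of the other arms of the unfolded protein response higher and 3 lower. The last of these lists had 2 calls in place of 6 without library B of unlabelled fixed cells and 3 without library B of unlabelled tubes. Temperature, time and the fixation itself changed together between the procedures and cannot be told apart.

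The promoters of the members were searched for the core of the C/EBP-ATF response element, TGATGNAA or its reverse complement TTNCATCA, through which ATF4 acts on its targets. It was present in 3 of the 10 members, Chac1, Trib3 and Asns. The windows searched had 300 bases, 250 before to 50 after the start given by RefSeq on GRCm38.p6. The members had 12 windows, of which 3 held the core, against 3.97% of all 32851 windows. The runs of 30 bases around the core are shown because these 3 genes moved in unlike ways. Chac1 and Trib3 fell with 4sU in the comparison over all libraries and Asns did not. Without 4sU, Chac1 and Asns were higher in fixed cells than in tubes. With 4sU, Asns still was. Chac1 then averaged 27.7 CPM in fixed cells and 27.6 CPM in tubes at 200 µM, and 22.7 and 22.3 CPM at 800 µM. Each run reads 5′ to 3′ along the gene's strand, with the core in capitals.
Chac1: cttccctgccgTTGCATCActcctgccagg
Trib3: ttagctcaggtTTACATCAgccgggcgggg
Asns: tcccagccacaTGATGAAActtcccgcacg

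The Chac1 run lies at chr2:119351038-119351067 on the plus strand, with its core from 193 to 186 bases before the start. That of Trib3 lies at chr2:152344028-152344057 on the minus strand, with its core 15 to 22 bases after the start, and that of Asns at chr6:7693214-7693243 on the minus strand, with its core from 23 to 16 bases before the start. These distances are from the RefSeq starts. By the GENCODE gene coordinates given above, which start at 152344032 for Trib3 and 7693254 for Asns, the Trib3 core lies before the start and the Asns core after it. Chac1 and Trib3 carry the core in reverse and Asns carries it forward. A match is a description of the letters in this window, and its absence in the other 7 members says nothing about their control.

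The deposited new-to-total ratio estimates how much of a gene's RNA was made during the 2 h of labelling, and the members fell into 2 ranges of it. Chac1 averaged 96.0% new over the 8 labelled libraries, Ddit4 95.4%, Ppp1r15a 91.0%, Sesn2 83.6%, Atf4 82.4%, Ddit3 82.3% and Trib3 79.6%. Psat1 averaged 27.2%, Asns 18.6% and Atf5 14.6%. In each of the 8 libraries the lowest of the first 7 genes was above the highest of the other 3, with the smallest gap in library A of fixed cells at 800 µM, 38.9% for Sesn2 against 19.2% for Psat1. Neighbours within each range overlapped. The division of the members into these 2 ranges was made after the values were seen, and unlabelled cells have no deposited ratio to set as a background.

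**Figure D3:**
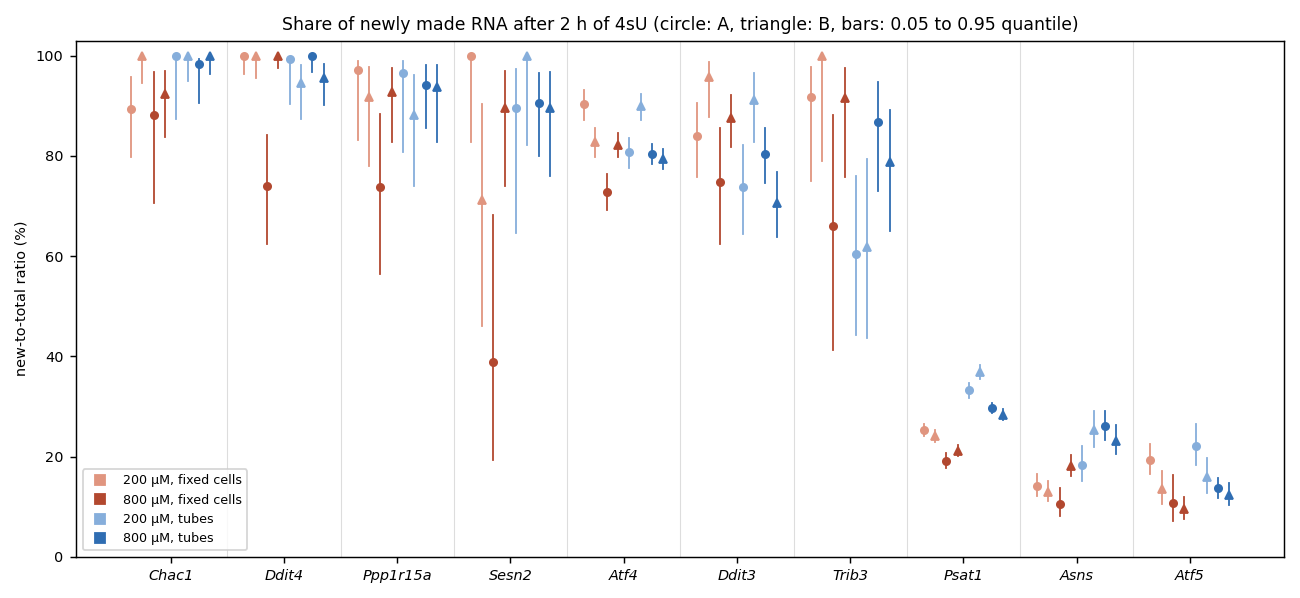
New-to-total ratio of each gene in the 8 labelled libraries, in percent, ordered by mean; circles are library A, triangles library B, and bars run from the deposited 0.05 to the 0.95 quantile. The 7 genes on the left average 79.6% or more and Psat1, Asns and Atf5 average 27.2% or less; library A of fixed cells at 800 µM gives the lowest value of Chac1, Ddit4, Ppp1r15a, Sesn2, Atf4, Psat1 and Asns.

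Set among the 5538 genes tested for the ratio, Chac1 stood at percentile 98.4 of the mean ratio, Ddit4 at 98.1, Atf4 at 89.6 and Ddit3 at 89.6, while Psat1 was at percentile 35.8, Asns at 19.6 and Atf5 at 11.1. Atf4 and Atf5, related factors under the same kind of translation control, were thus near opposite ends. Ppp1r15a, Sesn2 and Trib3 had fewer than 100 counts in some labelled library and were not tested. Their deposited intervals were wide, up to 48.8 points for Sesn2 and 46.8 points for Trib3, both in library A of fixed cells at 800 µM, against at most 3.12 points for Psat1.

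Library by library, Chac1 was at 89.4% and 100% new in fixed cells at 200 µM, 88.2% and 92.4% in fixed cells at 800 µM, 100% and 100% in tubes at 200 µM and 98.4% and 100% in tubes at 800 µM. Ppp1r15a was at 97.2% and 91.8%, 73.8% and 92.7%, 96.5% and 88.2%, and 94.2% and 93.7% in those groups. Trib3 was at 91.8% and 100%, 66.1% and 91.5%, 60.3% and 61.9%, and 86.7% and 78.7%. These 3 genes, which fell with 4sU in the comparison over all libraries, were thus, in the labelled cells, made up mostly of RNA from the labelling period.

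Atf4 was at 90.4% and 82.9% new in fixed cells at 200 µM, 72.9% and 82.2% in fixed cells at 800 µM, 80.7% and 90% in tubes at 200 µM and 80.4% and 79.4% in tubes at 800 µM. Ddit3 ranged from 70.6% to 95.7%, Ddit4 from 74.0% to 100% and Sesn2 from 38.9% to 100%. Without library A of fixed cells at 800 µM the lowest value of Ddit4 was 94.6% and that of Sesn2 was 71.1%.

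Psat1 was at 25.4% and 24.0% new in fixed cells at 200 µM, 19.2% and 21.2% in fixed cells at 800 µM, 33.2% and 36.8% in tubes at 200 µM and 29.7% and 28.4% in tubes at 800 µM. Asns was at 14.2% and 12.9%, 10.6% and 18.1%, 18.3% and 25.3%, and 26.1% and 23.2% in those groups. Atf5 was at 19.3% and 13.4%, 10.7% and 9.5%, 22.1% and 15.9%, and 13.6% and 12.3%. Psat1 was above Asns in all 8 libraries, Asns was above Atf5 in 4 of 8, and the fixed libraries of Psat1 and Asns lay below the tube libraries at the same dose.

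In limma's test of the logit of the ratio, 0 of the 7 members tested passed in fixed cells against tubes at 800 µM and 0 at 200 µM, where 0% of the 5538 genes were called and 1123 and 1056 of them had an unadjusted p under 0.05. Psat1 and Asns were the 2 members with an unadjusted p under 0.05 at each dose. Psat1 averaged 20.2% in fixed cells and 29.0% in tubes at 800 µM (logit difference -0.48, adjusted p = 0.159), and 24.7% in fixed cells and 35.0% in tubes at 200 µM (-0.50, adjusted p = 0.155). Asns averaged 14.3% in fixed cells and 24.7% in tubes at 800 µM (-0.70, adjusted p = 0.175), and 13.5% in fixed cells and 21.8% in tubes at 200 µM (-0.57, adjusted p = 0.245). The median logit difference of all tested genes was also below 0, at -0.31 for 800 µM and -0.19 for 200 µM. Without library B of fixed cells at 800 µM, Psat1 (-0.54, adjusted p = 0.0470) and Asns (-1.02, adjusted p = 0.0345) passed at that dose; without library A, the one that stood apart, Psat1 was at -0.42 (adjusted p = 0.320) and Asns at -0.39 (adjusted p = 0.502).

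Between the doses, 800 µM against 200 µM, limma called 0 of the 7 members for the ratio in fixed cells, where 0.0181% of the genes were called, and 0 in tubes, where 0% were. Atf5 was the 1 member with an unadjusted p under 0.05, in fixed cells, where it averaged 10.1% at 800 µM and 16.4% at 200 µM (logit difference -0.54, adjusted p = 0.284). In tubes no member had one, and 468 of the 5538 genes did.

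**Figure D4:**
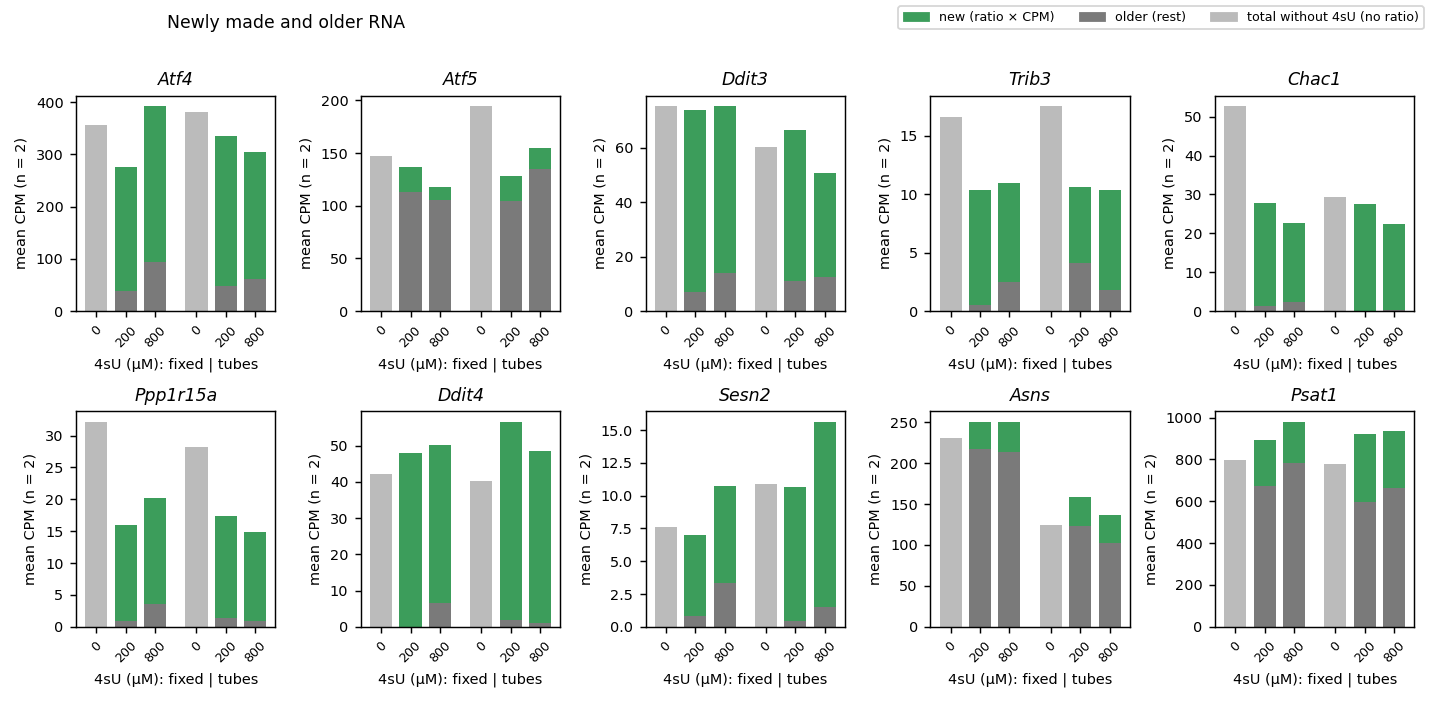
Mean CPM of each gene (n = 2 libraries, linear axis from 0) in fixed cells and tubes at 0, 200 and 800 µM 4sU, divided in the labelled groups into newly made RNA (ratio times CPM, green) and older RNA (dark grey); light grey bars are unlabelled groups, which have no ratio. Older RNA makes up most of Psat1, Asns and Atf5 and the smaller portion of the others in each labelled group.

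Multiplying the ratio by the CPM gives the level of newly made RNA, and the rest is older RNA. These levels were not tested. At an equal CPM, a lower ratio gives less new and more older RNA. The median ratio of all genes tested for it was also lower in the fixed libraries, at 25.95% to 35.68%, than in the tube libraries, at 36.2% to 42.31%. For Psat1, newly made RNA was 222.6 and 218.7 CPM in fixed cells at 200 µM and 202.0 and 192.4 CPM at 800 µM, against 292.9 and 353.0 CPM in tubes at 200 µM and 276.8 and 265.3 CPM at 800 µM. Older Psat1 RNA was 655.4 and 691.1 CPM in fixed cells at 200 µM and 851.6 and 715.0 CPM at 800 µM, against 589.5 and 604.9 CPM in tubes at 200 µM and 656.4 and 669.9 CPM at 800 µM. New Psat1 RNA was thus lower and older RNA higher in fixed cells than in tubes at 800 µM and at 200 µM, without overlap.

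For Asns, whose total was higher in fixed cells, the level of older RNA was higher there as well, with the same limits. Newly made Asns RNA was 34.3 and 33.5 CPM in fixed cells and 27.9 and 41.7 CPM in tubes at 200 µM, and 26.1 and 45.7 CPM in fixed cells and 35.2 and 32.0 CPM in tubes at 800 µM. Older Asns RNA was 207.5 and 226.1 CPM in fixed cells and 124.1 and 123.1 CPM in tubes at 200 µM, and 220.8 and 206.8 CPM in fixed cells and 99.6 and 106.0 CPM in tubes at 800 µM. The new levels overlapped between the procedures and the older levels did not. With library B alone at 800 µM in fixed cells, new Asns RNA, at 45.7 CPM, was above both tube libraries. For Chac1, older RNA was at most 2.92 CPM in any labelled library.

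The rest of the pathway was followed through lists of related genes, whose calls are to be read against the percentages of all genes given above. Over the 4 comparisons the median log2 change lay between 0.01 and 0.07 for the genes around eIF2, between -0.06 and 0.26 for amino acid supply, between -0.11 and 0.08 for the other ATF4 targets, between 0.14 and 0.23 for the ATF6 and IRE1 arms and between 0.33 and 0.66 for p53 targets, against -0.00 to 0.03 for all genes. Of 16 tested genes for the eIF2alpha kinases, eIF2, eIF2B and their partners, edgeR called 0 in each of the 4 comparisons of 4sU with no 4sU, with 1 at an unadjusted p under 0.05 in each, and DESeq2 called 0. With 1 library left out the list had 0 to 2 calls in fixed cells at 800 µM and 0 in the other 3 comparisons. In the added comparison over all labelled groups 1 was called, Dnajc3, an inhibitor of the kinase PERK, which rose by 0.32 on the log2 scale (adjusted p = 0.0169). Its call was lost without library A or B of unlabelled fixed cells or library B of unlabelled tubes (adjusted p up to 0.0881). The genes nearest to a call in single comparisons were Dnajc3 in tubes at 800 µM (0.46, adjusted p = 0.0900), Eif2b5, a subunit of eIF2B, in tubes at 200 µM (-0.42, adjusted p = 0.0882), and Ppp1r15b, the constitutive partner of GADD34's phosphatase, in fixed cells at 200 µM (-0.38, adjusted p = 0.30). Eif2b4 and Eif2ak1 were also among the 2 smallest p-values of a comparison, at -0.35 in fixed cells at 800 µM (adjusted p = 0.254) and 0.32 in tubes at 800 µM (adjusted p = 0.384).

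Among 18 tested ATF4 targets for amino acid supply, 1 fell in fixed cells at 800 µM, none was called in fixed cells at 200 µM or tubes at 800 µM, where 1 in each had an unadjusted p under 0.05 and DESeq2 called 0, and 1 rose in tubes at 200 µM. Slc38a2, a transporter of small neutral amino acids, fell by 0.86 on the log2 scale in fixed cells at 800 µM (adjusted p = 0.00123). With 1 of the 4 libraries left out, that change ran from -0.88 to -0.80. Slc38a2 was at -0.33 and -0.29 in fixed cells at 200 µM and tubes at 800 µM. In tubes at 200 µM it went the other way, higher with 4sU, and was not called. In the added comparison over all labelled groups it fell by 0.30 (adjusted p = 0.0113). That call was lost without library A or B of unlabelled fixed cells or library B of unlabelled tubes. With 1 library left out, the change ran from -0.33 to -0.28. Shmt2, a mitochondrial enzyme of serine and glycine metabolism, rose by 0.68 in tubes at 200 µM (adjusted p = 0.0367), where the list had 0 calls with any 1 of the 4 libraries left out, and was at 0.34 in tubes at 800 µM. Slc3a2 in fixed cells at 800 µM (-0.35), Slc1a4 in fixed cells at 200 µM (-0.28) and Slc1a5 in tubes at 200 µM (0.44), all amino acid transporters or their subunits, did not pass.

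Among 13 other tested ATF4 targets, regulators and secreted factors, Herpud1, a protein of degradation at the endoplasmic reticulum, fell in all 4 comparisons. Its log2 change was -0.83 and -0.68 in fixed cells at 800 and 200 µM (adjusted p = 0.0109 and 0.0494) and -0.68 and -0.72 in tubes at 800 and 200 µM (adjusted p = 0.0306 and 0.0208). Herpud1 averaged 33.6 and 37.0 CPM in fixed cells at 800 and 200 µM against 59.6 CPM without 4sU, and 47.8 and 46.7 CPM in tubes at 800 and 200 µM against 77.0 CPM without 4sU. DESeq2 did not call Herpud1 in fixed cells at 200 µM (adjusted p = 0.0535). With 1 library left out, Herpud1 was called in 2 of 4 cases in fixed cells at 800 µM, and not without library A or B of unlabelled fixed cells; in the other 3 comparisons it was called in 0 of 4 cases. In the added comparison it fell by 0.73 and was called in 12 of 12 cases. Cdsn, an adhesion protein best known from skin, rose in tubes at 200 µM (0.86, adjusted p = 0.0379), and was called in 0 of 4 cases with a library left out. Vegfa, a growth factor for blood vessels, was at 0.35 and 0.53 in fixed cells at 800 and 200 µM and 0.45 in tubes at 800 µM without passing. Vegfa rose in the added comparison (0.41, adjusted p = 0.0132), though not without library A of unlabelled tubes or library A or B of unlabelled fixed cells. In that comparison 2 of the 13 genes were called higher and 1 lower.

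The ATF6 and IRE1 arms of the unfolded protein response, with 15 tested genes, gave 1 call in the 4 comparisons, the chaperone Calr in tubes at 200 µM (0.53, adjusted p = 0.0356); edgeR and DESeq2 called 0 in the other 3, where 2 in each had an unadjusted p under 0.05. The Calr call in tubes at 200 µM was lost with any 1 of its 4 libraries left out. In the added comparison over all labelled groups Calr (0.30, adjusted p = 0.0199) and Pdia6 (0.23, adjusted p = 0.0450) rose. With a library left out, the Calr call was lost in some of the cases and the Pdia6 call in most of them. Of the 15 genes, 12 were higher and 3 lower there. Xbp1 was at -0.35 in fixed cells at 800 µM (adjusted p = 0.235), Atf6 at 0.34 and 0.39 in fixed cells at 800 and 200 µM, Ern1 at 1.11 in fixed cells at 200 µM (adjusted p = 0.375), Pdia6 at 0.38 in tubes at 800 µM and Sdf2l1 at -1.02 in tubes at 200 µM (adjusted p = 0.0671).

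Of 10 tested p53 targets, 4 rose in fixed cells at 800 µM, 1 at 200 µM, 4 in tubes at 800 µM and 4 in tubes at 200 µM, where Bax also fell (-1.10, adjusted p = 0.00557). Cdkn1a, the cell cycle inhibitor p21, rose in all 4, to 293.5 and 261.0 CPM in fixed cells at 800 and 200 µM against 138.4 CPM without 4sU, and to 271.4 and 258.2 CPM in tubes at 800 and 200 µM against 101.9 CPM without 4sU. Mdm2, the ubiquitin ligase of p53, rose by 1.21 in fixed cells at 800 µM and by 1.03 and 0.98 in tubes at 800 and 200 µM. Btg2 rose by 1.04 in fixed cells at 800 µM and by 1.32 and 1.14 in tubes at 800 and 200 µM, and Ccng1 rose by 0.69 and 0.63 in tubes at 800 and 200 µM. With 1 library left out the list had 1 to 5 calls in fixed cells at 800 µM, 0 at 200 µM, 1 to 3 in tubes at 800 µM and 1 to 5 at 200 µM; Cdkn1a was called in 4 of 4 cases in each of these comparisons but that of fixed cells at 200 µM, where it was called in 0 of 4. Ddit4 and Sesn2, the members that p53 is also known to control, were not called in any of these 4 comparisons. In the added comparison over all labelled groups, 7 of the 10 p53 targets rose and 1 fell, where 14.7% of all genes were called. With any 1 library left out, the calls of Cdkn1a, Mdm2, Btg2 and Ccng1 held. That of Bax and some of the others did not hold in every case. Ddit4 also rose in the added comparison (0.30, adjusted p = 0.0445), less stably as described above, and Sesn2 was at 0.23 without a call. A link of Ddit4 or Sesn2 to p53 was not tested.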

How the data were processed

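Read counts and new-to-total ratios of 12 SLAM-seq libraries of NIH-3T3 cells came from 1 deposited table of 15217 genes. Its read counts are expected counts, per the file headers and values, since 16.2% to 22.0% of a library's values had a decimal part; here they were rounded to whole numbers. For the 8 labelled libraries the authors deposited the ratio of new to total RNA as a fraction, by its maximum a posteriori value, mean and 0.05 and 0.95 quantiles, and the alpha and beta scores behind it, per the file headers. Tools listed in the submitters' processing notes are STAR 2.7.10b, Bowtie2 2.3.0 and cutadapt. Genome build, annotation, strand use in counting and the program behind the ratio were not given in the sources used here. GENCODE M21 (GRCm38) held 15185 of the gene IDs and lacked 32; gene coordinates are from it, and promoter sequences are RefSeq's on GRCm38.p6.

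Low genes were removed with filterByExpr (minimum count 10, minimum total 15). The test for counts was edgeR's quasi-likelihood F test (edgeR 4.0.16, R 4.3.3) after TMM scaling, in 1 fit of the 6 groups without a block (6 residual degrees of freedom, median prior degrees of freedom 12.1) and Benjamini-Hochberg adjustment at 0.05. Levels are counts per 1000000 (CPM) of the TMM-scaled library size, and differences are on the log2 scale. Ratios were tested with limma 3.58.1 on their logit, after limits of 0.001 and 0.999, for genes with at least 100 counts in every labelled library. Both steps were tested on simulated data. Alternatives were DESeq2 1.42.0, other scaling (RLE size factors, or TMM on the 3663 genes with the lowest ratio), no filter, a replicate block, leaving out each library in turn, and, for the ratio, a minimum count of 30, the posterior mean and the ratio without the logit. The 10 members and the lists were chosen with earlier results of these data known. All members are named in every comparison; from each list, the 2 genes with the smallest p in each comparison of 4sU with no 4sU and those called in 2 or more of them are named. The comparison of the mean of all labelled groups with that of the unlabelled groups was added after seeing the data.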

Additional observations from a re-analysis of the deposited data

How the results depend on the processing

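No called value of a member changed sign under any alternative, but 48 of the 128 results of a member in a comparison had a value short of the threshold that did. With DESeq2, 1 member was called in tubes at 200 µM, against 0 with edgeR. With TMM on the genes with the lowest ratio, and likewise with no filter on low counts, 2 members were called in fixed cells at 800 µM (1 in edgeR's main setting) and 2 in tubes at 200 µM (0 in the main setting). The replicate block left 3 of the 6 members called in the comparison of all labelled with all unlabelled groups, with Atf5, Ddit4 and Psat1 at adjusted p = 0.0516, 0.0546 and 0.0549, and moved no other count of called members by over 1.5 times. The labels do not say that the letters A and B pair libraries across groups, and the A minus B differences of different groups correlated between -0.104 and 0.0946.

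With each library left out in turn, a group of 1 library being assumed to vary like the others, the number of called members was 0 to 3 in fixed cells at 800 µM, 0 to 0 in fixed cells at 200 µM, 0 to 0 in tubes at 800 µM, 0 to 1 for 800 µM against 200 µM in fixed cells, 1 to 2 for unlabelled fixed cells against tubes, 2 to 7 for all labelled against unlabelled groups, and 0 to 2 for the ratio in fixed cells against tubes at 800 µM. Over all genes the calls then ran from 24 to 1199 (295 with all libraries) in fixed cells at 800 µM, 2 to 9 (90) at 200 µM, 22 to 88 (207) in tubes at 800 µM and 18 to 210 (416) at 200 µM. TMM on the genes with the lowest ratio gave 46 higher and 458 lower calls in place of 86 and 209 in fixed cells at 800 µM, 18 and 141 in place of 27 and 63 at 200 µM, 56 and 246 in place of 101 and 106 in tubes at 800 µM, and 91 and 413 in place of 262 and 154 at 200 µM. Depth limits Sesn2 and Trib3 most.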
